A study of Mus musculus with 9 samples.

Results

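The genes described here are 7 subunits of the GABA-A receptor, Gabra2, Gabra3, Gabra4, Gabra5, Gabrb1, Gabrb2 and Gabrg1, which were picked by gene symbol from the 32787 entries of the count table. All 7 were found, and all 7 passed the filter on low counts in every comparison below. Cells were taken from ventral midbrain. The mice were VGAT-Cre:Ai14:Pitx3-GFP, in which Cre made under the gene of the vesicular GABA transporter (VGAT, Slc32a1) turns on the red reporter tdTomato and GFP is made from the locus of Pitx3, a gene of midbrain dopamine neurons. Because the recombination is permanent, tdTomato also marks cells that expressed VGAT earlier and no longer do. Single cells were sorted into plates either on tdTomato alone (VGAT) or on tdTomato together with GFP (VGAT+Pitx3), at embryonic day 16 (E16) or on the day of birth (P0), and were sequenced from the poly-A tail by CEL-seq2. There were 4 VGAT plates at E16, 3 VGAT plates at P0 and 1 VGAT+Pitx3 plate at each stage. All groups carried the same alleles, and none was treated.

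The GABA-A receptor is a chloride channel of 5 subunits opened by GABA, usually made of alpha, beta and gamma subunits around a central pore. The alpha subunit sets much of the response to GABA and to benzodiazepines, the beta subunit forms the GABA site together with alpha and is needed for the receptor to reach the membrane, and the gamma subunit anchors the receptor at synapses. In the midbrain such receptors carry the inhibition of substantia nigra and ventral tegmental neurons, and in immature neurons, which hold more chloride, GABA can depolarise through the same channel.

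Of 3455 wells, 2035 were kept, which had 2000 or more genes, no more than 50000 counts and a mitochondrial share below 15%, 1460 of them VGAT and 575 VGAT+Pitx3. The kept wells of a plate numbered 44 to 305 and summed to between 1435919 and 5408710 counts, with a median per cell of 7043 on VGAT P0 replicate 2 and 33272 on VGAT P0 replicate 1. The sort labels matched the marker genes. Th, the rate-limiting enzyme of dopamine synthesis, was at 563 and 471 CPM (counts scaled to a library sum of 1000000, where the sum of each plate was multiplied by its TMM factor, edgeR's correction for differences in RNA makeup) on the VGAT+Pitx3 plates and at 0.189 to 6.13 CPM on the VGAT plates, and the summed level of Slc32a1, Gad1 and Gad2 (sums over marker lists are CPM without that factor) was 1576 to 2090 CPM on the VGAT plates and 1128 and 1279 CPM on the VGAT+Pitx3 plates. VGAT P0 replicate 2 was highest in astrocyte markers, with 121.5 CPM summed over 5 genes (Gfap at 0) against at most 5.28 CPM on the other VGAT plates. On the VGAT+Pitx3 plates that sum was 26.1 CPM at E16 and 59.5 CPM at P0. Microglia markers (5 genes) summed to 55.2 CPM on VGAT P0 replicate 2 and to 39.4 CPM on VGAT E16 replicate 2. A plate is the unit of every test below. Labels do not tie plates to animals, so the p-values measure the spread between plates, and in summed counts fewer cells of a type cannot be told apart from less RNA per cell. Stage carries a further limit. Each cell name holds 2 plate labels, of which the first gives the sample's own title and was used, and the second disagrees with it in stage or sort on 6 of 9 plates.

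Of the members, 4 lie next to each other on chromosome 5 (coordinates are of GRCm38, GENCODE M21). Gabrg1 spans chr5:70751047-70842617 and Gabra2 chr5:70957597-71095849, both on the minus strand, followed by Gabra4 at chr5:71569749-71658308 on the minus strand and Gabrb1 at chr5:71658113-72149037 on the plus strand. Gabra4 and Gabrb1 start head to head and their annotated spans share 196 bases, so that the cluster runs over 1397991 bases. Gabra5 lies at chr7:57407672-57510059 on the minus strand, Gabrb2 at chr11:42419757-42629028 on the plus strand and Gabra3 at chrX:72432681-72656848 on the minus strand. Whether the counting used strand is not given in the sources used here, so reads in the bases that members share with genes of the opposite strand could not be assigned with certainty.

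Upstream sequences are shown for 3 members that the comparison of the sorts separates, the cluster neighbours Gabra2 and Gabrg1, which were both lower in VGAT+Pitx3 cells, and Gabra3, which was not. Each is the 250 bases before the RefSeq start on the gene's own strand (GRCm38.p6), in none of which an annotated exon lies, with chr5:71095850-71096099 for Gabra2, chr5:70842618-70842867 for Gabrg1 and chrX:72656920-72657169 for Gabra3. Capitals mark matches on either strand. The motifs searched were AGATAA, read by GATA factors, then TAATCC, read by bicoid-type homeodomain factors such as Otx2, and AAAGGTCA, which is the NBRE element bound by Nr4a2. General promoter elements were added, the TATA box as TATAAA, the GC box bound by Sp1 as GGGCGG, and the CCAAT box under its own letters.
Gabra2: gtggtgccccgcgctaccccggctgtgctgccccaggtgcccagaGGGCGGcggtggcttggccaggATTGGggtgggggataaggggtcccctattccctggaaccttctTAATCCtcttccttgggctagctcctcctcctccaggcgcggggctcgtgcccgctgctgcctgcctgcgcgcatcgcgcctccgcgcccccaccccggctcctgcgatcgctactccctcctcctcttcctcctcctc
Gabrg1: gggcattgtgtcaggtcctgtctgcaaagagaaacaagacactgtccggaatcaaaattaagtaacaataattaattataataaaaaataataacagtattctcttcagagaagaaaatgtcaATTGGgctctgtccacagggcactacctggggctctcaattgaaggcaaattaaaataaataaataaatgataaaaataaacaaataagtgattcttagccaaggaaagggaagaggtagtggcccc
Gabra3: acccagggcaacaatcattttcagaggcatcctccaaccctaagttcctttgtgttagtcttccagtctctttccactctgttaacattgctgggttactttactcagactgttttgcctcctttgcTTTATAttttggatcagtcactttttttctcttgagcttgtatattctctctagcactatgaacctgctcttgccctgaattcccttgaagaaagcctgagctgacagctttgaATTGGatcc
The Gabra2 window held 70.0% G and C and 18 CpG, against 35.6% and 1 CpG for Gabrg1 and 42.4% and 0 CpG for Gabra3. Gabra2 had a GC box beginning 205 bases before the start, a CCAAT box on the minus strand at 183 bases and the bicoid-type motif at 139 bases. Gabrg1 had 1 match, a CCAAT box on the minus strand at 127 bases, and Gabra3 had a TATA box at 123 bases and a CCAAT box at 9 bases, both on the minus strand. No match overlapped another. Among 32851 such windows of RefSeq starts, 33.8% held the CCAAT box, 32.7% the GC box, 12.4% the TATA box, 9.99% the GATA motif, 6.25% the bicoid-type motif and 1.34% the NBRE. A match describes the letters of the window and is not evidence of a bound site.

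Counts of introns made up a different part of the total for each member, which matters because they report unspliced RNA or priming inside the gene. Intronic counts were 94.4% ± 0.974 (SD, n = 9 plates) of all Gabrb2 counts, 60.3% ± 5.79 of Gabrb1, 46.4% ± 4.29 of Gabra2 and 39.2% ± 8.42 of Gabrg1. They were 27.7% ± 7.42 of Gabra3, 22.96% ± 10.2 of Gabra4 and 17.3% ± 4.30 of Gabra5, while 20.1% to 30.0% of all counts on a plate were intronic. The Gabrb2 values below are therefore almost wholly intronic, with an exonic level of 14.2 ± 6.04 CPM (n = 7 VGAT plates). Summed over the 9 plates the members held 810 (Gabra4) to 12040 (Gabrb1) counts. A CPM value of one member is not compared with that of another, since the members differ in their intronic share.

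In VGAT cells, Gabrb2 was lower at P0 than at E16 and no other member passed the test. Gabrb2 encodes the beta 2 subunit, which is a partner of the alpha subunits of mature synapses. It was at 192, 174, 323 and 300.2 CPM on E16 replicates 1 to 4 and at 110.4, 167 and 117 CPM on P0 replicates 1 to 3. The groups did not overlap, although the lowest E16 plate was close to the highest P0 plate. Gabrb2 fell by 0.90 on the log2 scale (SE 0.22, 1.87-fold lower, adjusted p = 0.0417, edgeR's quasi-likelihood test with Benjamini-Hochberg adjustment over 13639 genes). The 1 of 7 members called is set against 4.58% of all genes tested.

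Among the alpha subunits, Gabra2 (alpha 2, the alpha subunit of many immature and axo-axonic synapses) was at 147, 163, 208 and 205 CPM at E16 and at 169, 188 and 164 CPM at P0. The ranges overlapped, with a log2 difference of -0.05 (SE 0.14, edgeR adjusted p = 0.871). Gabra3 (alpha 3) differed by 0.15 (SE 0.20), Gabra4 (alpha 4, found in extrasynaptic receptors) by -0.18 (SE 0.19) and Gabra5 (alpha 5, found largely outside synapses) by 0.30 (SE 0.15), with edgeR adjusted p-values of 0.689, 0.607 and 0.236. Gabra5 ranged from 60.3 to 89.6 CPM at E16 and from 81.1 to 101.5 CPM at P0.

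Gabrb1 (beta 1), the second beta subunit studied, was at 341, 390, 449 and 482 CPM at E16 and at 428, 368 and 368 CPM at P0, and its log2 difference was -0.09 (SE 0.13, edgeR adjusted p = 0.738). Gabrg1 (gamma 1, a gamma subunit with low sensitivity to classical benzodiazepines) was at 55.9, 71.1, 64.2 and 75.6 CPM at E16 and at 91.0, 82.8 and 95.04 CPM at P0. All P0 plates lay above all E16 plates, and the log2 difference of 0.44 (SE 0.13) had an adjusted p of 0.0672 by edgeR's quasi-likelihood test. Without possible doublets, which are wells with over 2 times the median counts of their plate, this adjusted p was 0.0436.

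**Figure D1:**
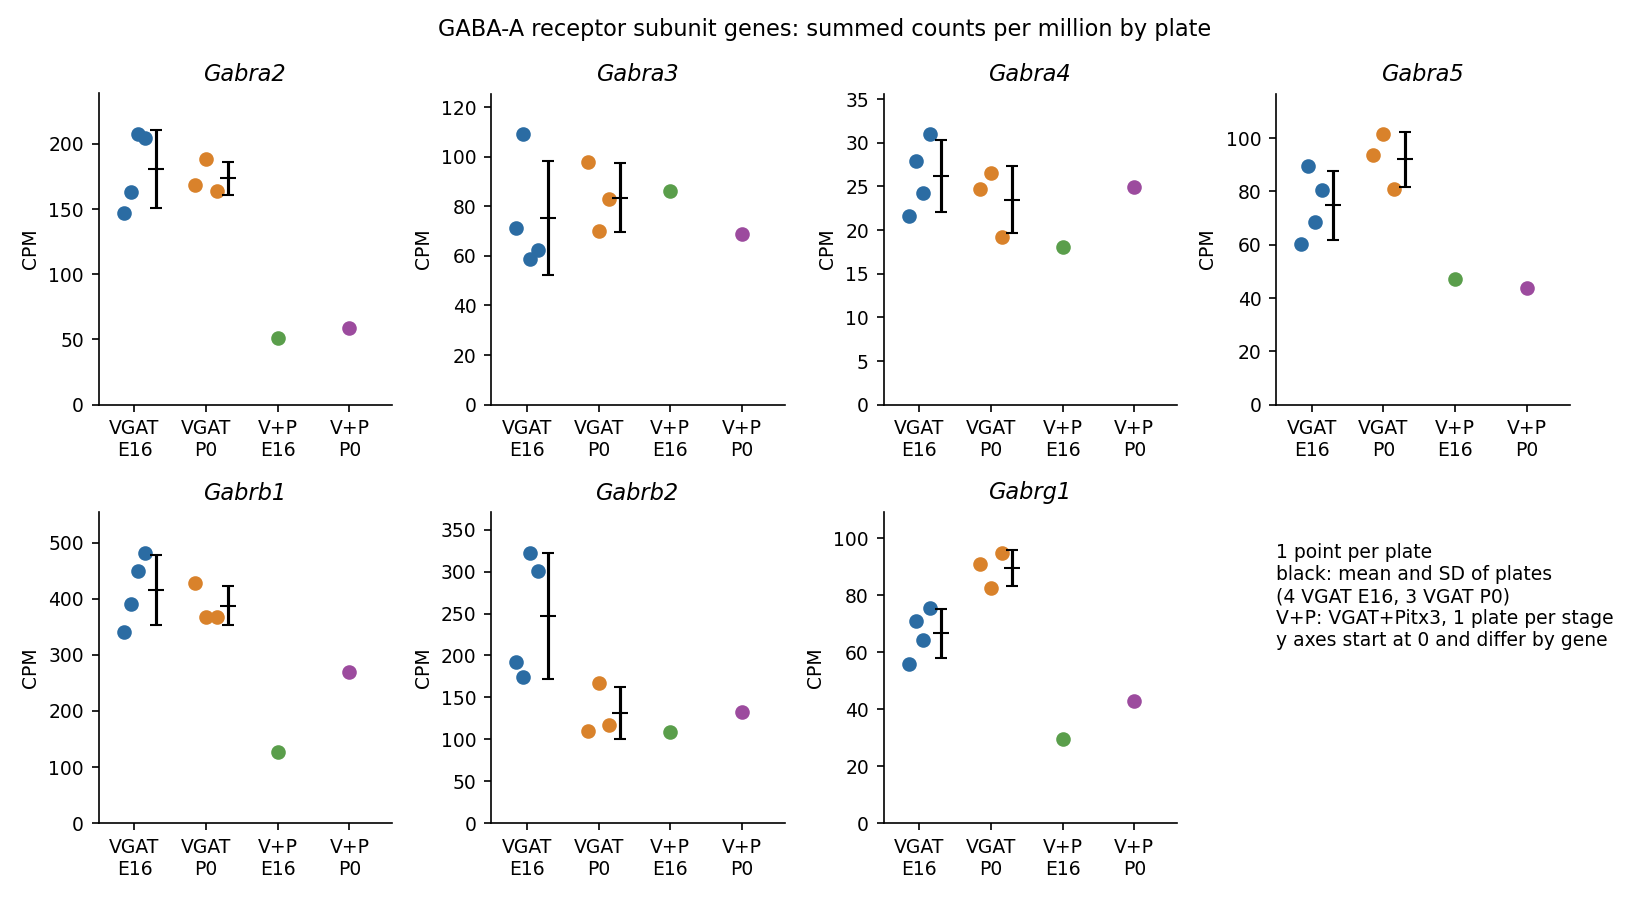
Level of each member in CPM on each of the 9 plates, in separate panels whose axes start at 0, by sort and stage (V+P, VGAT+Pitx3), with the mean and SD of the VGAT groups in black. Gabrb2 and Gabrg1 are the members whose VGAT E16 and VGAT P0 plates do not overlap, and Gabra2, Gabra5, Gabrb1 and Gabrg1 are lower on both VGAT+Pitx3 plates than on every VGAT plate. The share of all genes whose plates separate in these ways was not counted.

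Gabrb2 was highest on E16 replicates 3 and 4, where Pax5, a marker of 1 group of substantia nigra pars reticulata cells, was at 299 and 204 CPM, against 25.9 to 114 CPM on the other VGAT plates. In cells with a Pax5 and no Six3 count, Gabrb2 was at 314 to 615 CPM on the E16 plates and at 68.9 to 262 CPM on the P0 plates. The P0 values came from 5, 19 and 7 such cells and that of E16 replicate 1 from 5. Stage was not tested within Pax5 cells. In cells with a Six3 count and no Pax5 count alone, Gabrb2 was at 187, 167, 181 and 216 CPM at E16 and at 167, 144 and 88.0 CPM at P0 (without the TMM factor). The lowest E16 and the highest P0 plate were then almost level, the log2 difference was -0.53 (SE 0.20, edgeR adjusted p = 0.147) and 0 of 7 members were among the 230 genes called. The call was also lost without E16 replicate 3 (log2 difference -0.75, adjusted p = 0.118), E16 replicate 4 (-0.79, 0.104), P0 replicate 1 (-0.81, 0.0853) or P0 replicate 3 (-0.82, 0.141), and for exonic counts alone (-0.88, 0.107). The second plate label gives the other stage for those same plates, E16 replicates 3 and 4 and P0 replicates 1 and 3. With stage taken from that label, Gabrb2 differed by 0.83 in the opposite direction (edgeR adjusted p = 0.714) and 1 gene of 13639 was called.

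**Figure D2:**
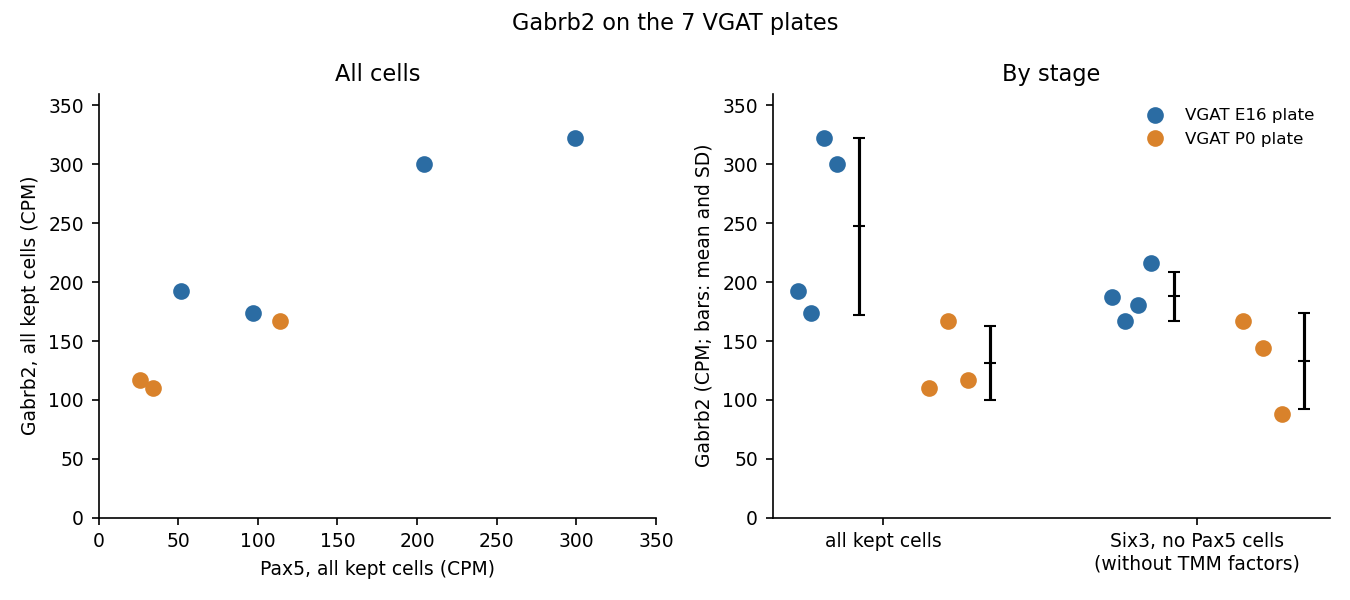
Gabrb2 in CPM on the 7 VGAT plates, against the CPM of Pax5 (left) and by stage in all kept cells and in cells with a Six3 count and no Pax5 count (right, 1 point per plate, bars for mean and SD). The 2 plates with the highest Pax5, 299 and 204, also have the highest Gabrb2, and the stages are apart in all cells and nearly meet in the Six3 cells, which are plotted without the TMM factor and lie between 88.0 and 216.

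VGAT+Pitx3 cells, which hold both GABA and dopamine markers, had less Gabra2, Gabra5, Gabrb1 and Gabrg1 than VGAT cells, and no such difference was found for Gabra3. With stage in the fit, 4 of 7 members were called, all lower in VGAT+Pitx3 cells, where 8.93% of the 14624 genes tested were called in either direction. Gabra2 was at 50.9 CPM on the E16 and 58.9 CPM on the P0 VGAT+Pitx3 plate, against 178 ± 22.8 CPM (SD, n = 7) on the VGAT plates. It fell by 1.70 on the log2 scale (SE 0.17, 3.26-fold lower, edgeR adjusted p = 7.8e-06) and kept an adjusted p of at most 0.0117 in every alternative fit, which is the value in cells with no Th, Slc6a3 or Pitx3 count.

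Gabra5 was at 47.3 and 43.7 CPM on the VGAT+Pitx3 plates against 82.2 ± 14.3 CPM on the VGAT plates. It was 1.79-fold lower (log2 -0.84, SE 0.17, edgeR adjusted p = 0.00564), with no overlap between the sorts. Without the P0 VGAT+Pitx3 plate its adjusted p was 0.137 (log2 -0.67). Gabra3 was at 86.2 and 68.7 CPM against 78.9 ± 18.7 CPM, inside the VGAT range of 58.9 to 109 CPM, with a log2 difference of -0.01 (SE 0.21, adjusted p = 0.991). Gabra4 was at 18.01 and 24.98 CPM against 25.02 ± 3.93 CPM, with a log2 difference of -0.25 (SE 0.21, adjusted p = 0.644).

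Gabrb1 was at 127 CPM on the E16 and 269 CPM on the P0 VGAT+Pitx3 plate against 404 ± 50.8 CPM on the VGAT plates, of which the lowest was at 341 CPM. It was 2.11-fold lower (log2 -1.08, SE 0.23, edgeR adjusted p = 0.00648), and without the E16 VGAT+Pitx3 plate the log2 difference was -0.54 with an adjusted p of 0.242. Gabrb2 was at 108 and 132 CPM against 198 ± 83.5 CPM, the E16 plate just below the lowest VGAT plate (110.4 CPM) and the P0 plate inside the VGAT range, with a log2 difference of -0.58 (SE 0.29, adjusted p = 0.330). Gabrg1 was at 29.5 and 42.8 CPM against 76.5 ± 14.1 CPM, 2.18-fold lower (log2 -1.13, SE 0.15, adjusted p = 1.2e-04). It kept its call without either VGAT+Pitx3 plate.

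Cell makeup differed between the sorts as well. The 8 dopamine markers (Th, Slc6a3, Slc18a2, Ddc, Pitx3, Nr4a2, En1, Lmx1b), none at 0 on the VGAT+Pitx3 plates, summed to 4107 and 3182 CPM there and to 116 to 175 CPM on the VGAT plates, where Pitx3, Slc6a3 or Lmx1b was at 0 on 5 plates. In cells with a Slc32a1, Gad1 or Gad2 count, 262 of 304 and 225 of 271 on the VGAT+Pitx3 plates, the same 4 members were called. That fit called 1281 of 14500 genes. In cells with no Th, Slc6a3 or Pitx3 count, 34 and 58 on those plates, fewer genes were called in all, 658 of 13903. The 1 member among them was Gabra2, with a log2 difference of -1.11 (edgeR adjusted p = 0.0117). In those cells Gabrb1 differed by -0.85 (adjusted p = 0.0693), Gabrg1 by -0.70 (0.171) and Gabra5 by -0.09 (0.905).

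**Figure D3:**
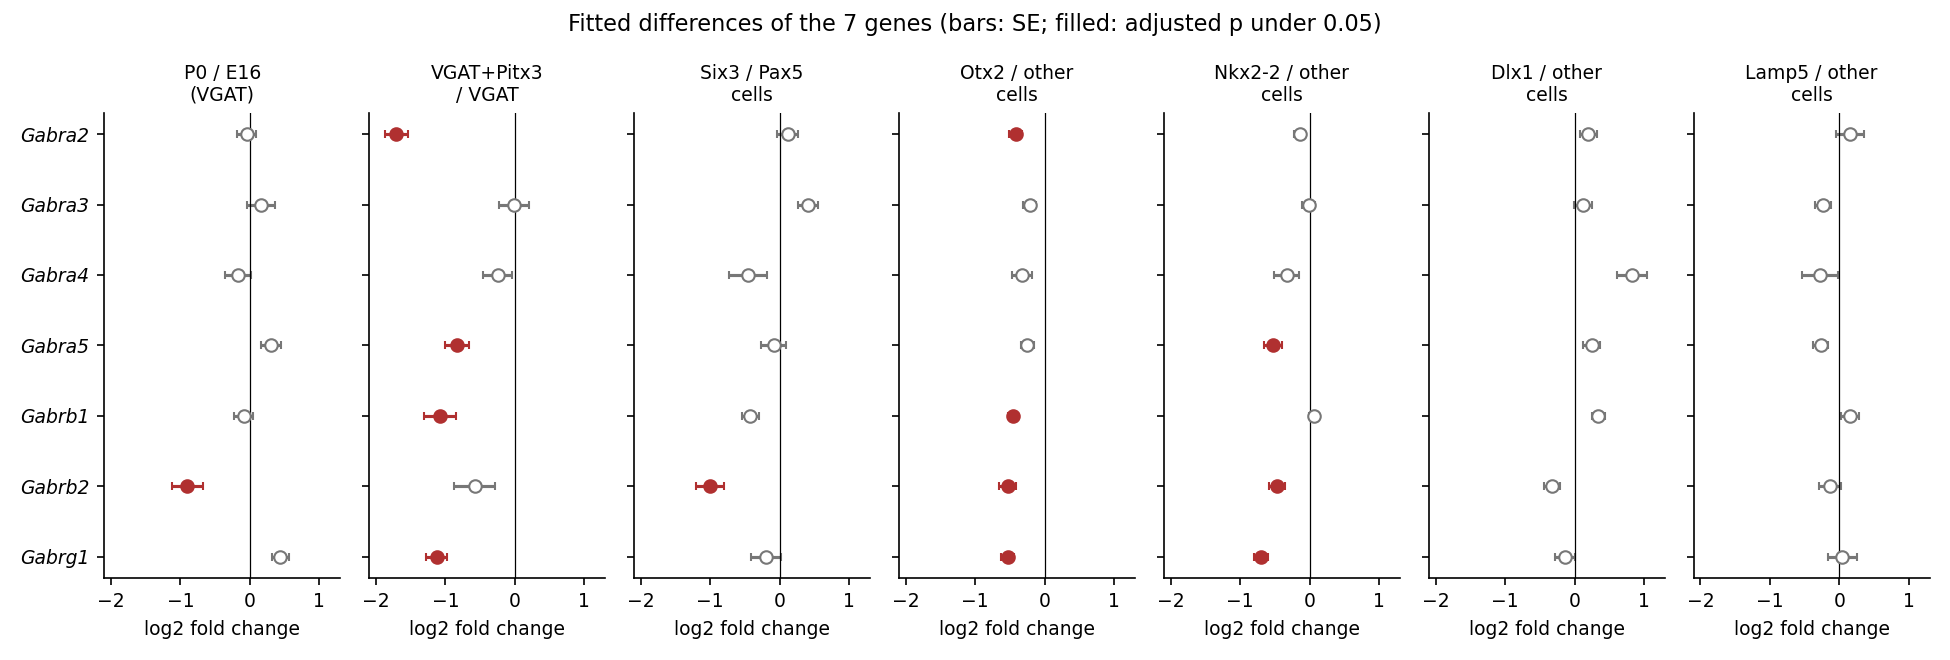
Log2 fold change of each member with its standard error in 7 comparisons, P0 with E16 VGAT plates, VGAT+Pitx3 with VGAT plates and 5 pairs of cell groups within the VGAT plates, with filled points for an adjusted p under 0.05. By stage Gabrb2 alone is filled, at -0.90, by sort Gabra2, Gabra5, Gabrb1 and Gabrg1 lie between -1.70 and -0.84, and no point is filled for Dlx1 or Lamp5 cells.

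The makeup of the alpha counts followed. Gabra2 took 50.7% ± 6.88 of the counts of the 4 alpha members on the E16 VGAT plates (n = 4) and 46.6% ± 2.51 on the P0 VGAT plates (n = 3), and 25.1% to 30.0% on the VGAT+Pitx3 plates. Gabra3 took 21.1% ± 5.70 and 22.5% ± 3.82 on the VGAT plates and 35.0% to 42.6% on the VGAT+Pitx3 plates. The other two differed less, with Gabra5 at 20.9% ± 1.69 and 24.7% ± 1.49 on the VGAT plates and 22.3% to 23.4% on the VGAT+Pitx3 plates. Gabra4 held 7.32% ± 0.608, 6.27% ± 0.682 and 8.90% to 12.7%. These shares are of counts, intronic ones included, and are given as a description.

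Whether the stage difference itself differed between the sorts was asked by the interaction of both, in which each VGAT+Pitx3 plate stands alone at its stage and takes its spread from the VGAT plates. Of 15724 genes 0% were called, against 998 with an unadjusted p under 0.05 and 14 called by DESeq2. The fit can miss real differences. On simulated data it recovered 7% of genes with a true log2 interaction of 1 and 53% of those with 2. Gabrb1 had an interaction of 1.17 on the log2 scale (SE 0.29, edgeR adjusted p = 0.773). Its VGAT+Pitx3 level was 127 CPM at E16 and 269 CPM at P0 while the VGAT groups overlapped, and DESeq2 gave it an adjusted p of 0.0437. Gabrb2 had an interaction of 1.20 (SE 0.46, edgeR adjusted p = 0.773), and the other members had adjusted p-values from 0.811 to 0.958.

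On the VGAT+Pitx3 plates Gabra5 varied between groups of cells split by Sox6, a factor of substantia nigra dopamine neurons, and Otx2, a factor of the ventral tegmental area. With 1 plate per stage the values have no test, and the exact Poisson intervals (95%) cover counting error only (CPM without the TMM factor). At E16 Gabra5 was at 15.1 CPM (10.2 to 21.6) in 109 cells with Sox6 and no Otx2 count and at 80.5 CPM (68.5 to 93.8) in 154 cells with neither. At P0 it was at 24.6 CPM (12.7 to 42.9) in 45 and at 50.6 CPM (40.2 to 62.8) in 197 such cells, and these intervals overlapped. Cells with Otx2 and no Sox6 count were also below cells with neither in Gabra5, at 36.3 CPM (19.4 to 62.2) in 27 cells at E16 and at 20.2 CPM (5.52 to 51.8) in 26 cells at P0, the second interval again overlapping. The Sox6 cells also had more of the dopamine transporter gene Slc6a3, with 1293 and 1463 CPM at E16 and P0 against 156 and 377 CPM in cells with neither. The intervals of Gabra2 and Gabra3 overlapped between Sox6 cells and cells with neither at both stages. In cells with Otx2 and no Sox6 count Gabra2 was at 58.7 CPM (36.3 to 89.7) at E16, against 51.7 CPM (42.2 to 62.6) in cells with neither. At P0 it was at 15.2 CPM (3.13 to 44.4), from 3 counts, against 61.7 CPM (50.2 to 75.1), so that the 2 stages went opposite ways. Gabrb2 was at 76.2 CPM (64.5 to 89.3) in Sox6 cells, 168 CPM (128 to 216) in 27 cells with Otx2 and no Sox6 count and 124 CPM (109 to 141) in cells with neither at E16. At P0 these values were 77.8 CPM (55.0 to 107), 121 CPM (77.8 to 181) and 143 CPM (125 to 163). Gabra4 was higher in Sox6 cells at E16, at 22.2 CPM (16.1 to 29.8) against 10.9 CPM (6.85 to 16.5) in cells with neither. In cells with Otx2 and no Sox6 count Gabrg1 was at 8.39 CPM (1.73 to 24.5) at E16, from 3 counts. In cells with neither it was then at 36.8 CPM (28.9 to 46.1). At P0 the intervals of both genes overlapped between all groups, as did those of Gabrb1 at both stages.

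Within the VGAT plates, cells were next compared by a count of 1 marker gene that the study uses for a region, with the plate as a block and with the marker left out of the fit. These comparisons share cells and plates with each other and are given side by side, and no receptor gene was used to choose the cells. A count of 1 gene does not place a cell in a region. The first set 637 cells with Six3 and no Pax5 count against 197 cells with Pax5 and no Six3 count, both factors of substantia nigra pars reticulata neurons. Six3 cells had less Gabrb2. In Six3 cells it was at 187, 167, 188 and 222 CPM on E16 replicates 1 to 4 and at 166, 146 and 86.9 CPM on P0 replicates 1 to 3. In Pax5 cells it was at 502, 314, 615 and 504 CPM at E16 and at 68.9, 262 and 177 CPM at P0. It was lower in Six3 cells on 6 of 7 plates. Few Pax5 cells stood behind some plates in both directions. The exception, P0 replicate 1, held 13 counts from 5 Pax5 cells. Among the other plates, E16 replicate 1 held 47 counts from 5 Pax5 cells and P0 replicate 3 held 23 from 7. The fitted difference was -1.001 (SE 0.20, 2.00-fold lower, edgeR adjusted p = 0.00520), and 1 of 7 members was called against 2.82% of 11773 genes. Exonic counts alone gave -1.16 with an adjusted p of 0.0408, and without the plate as a block the adjusted p was 0.0506.

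Gabrb1 was lower in Six3 cells on 6 of 7 plates by 0.42 on the log2 scale in the fit (SE 0.12, edgeR adjusted p = 0.0618). Without P0 replicate 1 its difference was -0.47 (adjusted p = 0.0267) and without P0 replicate 3 -0.52 (0.0133). Gabra3 exceeded its Pax5 level in the Six3 cells of 7 of 7 plates, at 73.5, 117, 64.6 and 71.8 CPM at E16 and 85.1, 76.8 and 92.5 CPM at P0. In Pax5 cells it was at 42.7, 106, 35.6 and 63.3 CPM at E16 and 53.0, 59.0 and 77.1 CPM at P0. These Pax5 levels rest on 4 counts on E16 replicate 1 and on 10, 9 and 10 counts on P0 replicates 1 to 3. The log2 difference of 0.41 (SE 0.14) did not pass the test (adjusted p = 0.189). The 4 remaining members differed by -0.46 (Gabra4) to 0.12 (Gabra2) with adjusted p-values of 0.610 or more.

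Cells with an Otx2 count, a factor found in the ventral tegmental area and also in the reticular formation and the interpeduncular nucleus, had less of 4 of 7 members than the other VGAT cells (398 and 1062 cells), where 4.64% of 12414 genes were called. Gabrb1 was at 295, 297, 311 and 337 CPM in Otx2 cells at E16 and at 361, 344 and 330 CPM at P0. In the other cells it was at 370, 428, 502 and 556 CPM and at 478, 381 and 382 CPM. It was lower on 7 of 7 plates, with a log2 difference of -0.45 (SE 0.07, edgeR adjusted p = 7.6e-04). Gabrg1 was at 41.5, 55.1, 46.1 and 54.0 CPM in Otx2 cells at E16 and at 61.5, 80.7 and 81.7 CPM at P0, against 64.5, 77.7, 71.3 and 86.6 CPM and 110.3, 84.7 and 99.3 CPM. It too was lower on 7 of 7 plates, by 0.53 on the log2 scale in the fit (SE 0.09, adjusted p = 0.00180).

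Gabra2 was lower in Otx2 cells on 6 of 7 plates (log2 -0.42, SE 0.09, edgeR adjusted p = 0.0115), and without E16 replicate 1 its adjusted p was 0.0602. Its levels were 104, 135, 174 and 176 CPM at E16 and 119, 122 and 181 CPM at P0 in Otx2 cells. In the other cells they were 173, 175, 222 and 222 CPM and 202, 209 and 162 CPM, so that P0 replicate 3 went the other way. Gabrb2 was lower on 6 of 7 plates (log2 -0.53, SE 0.12, adjusted p = 0.0118), and lost its call without E16 replicate 3 (0.0535) or E16 replicate 4 (0.0624) and for exonic counts alone (0.136). The members that were not called, Gabra3, Gabra4 and Gabra5, differed by -0.22, -0.33 and -0.25 with adjusted p-values of 0.290, 0.304 and 0.193. Without the plate as a block Gabrb1 alone was called. The comparison group contained the Pax5 cells, and the part of these cells in the Gabrb2 difference was not tested.

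Cells with an Nkx2-2 count, a marker used for the midbrain reticular formation, had less Gabrg1, Gabra5 and Gabrb2 than the other VGAT cells (532 and 928 cells), and 3 of 7 members were called against 3.24% of 13349 genes. Gabrg1 was at 42.5, 60.9, 40.2 and 59.2 CPM in Nkx2-2 cells at E16 and at 54.3, 62.8 and 72.0 CPM at P0. In the other cells it was at 66.3, 79.0, 80.2 and 95.1 CPM and at 129, 92.2 and 105 CPM. The values were lower on 7 of 7 plates, with a log2 difference of -0.70 (SE 0.10, edgeR adjusted p = 4.8e-04), and the call held without any 1 plate, with DESeq2, for exonic counts and without the plate block. Nkx2-2 cells had the higher median depth on 7 of 7 plates. The part of depth in this result was not tested.

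Gabra5 was at 49.0, 56.6, 54.4 and 67.2 CPM in Nkx2-2 cells at E16 and at 57.1, 94.2 and 95.6 CPM at P0, against 69.3, 113, 78.0 and 97.2 CPM and 132, 106 and 77.3 CPM. It was lower on 6 of 7 plates (log2 -0.52, SE 0.13, edgeR adjusted p = 0.0349). The call was lost without any of E16 replicates 1 to 4 or P0 replicate 1, with adjusted p-values from 0.0672 to 0.160, and with DESeq2 (0.0686). Gabrb2 was lower on 5 of 7 plates (log2 -0.47, SE 0.12, adjusted p = 0.0340), and its call was lost without E16 replicates 1, 3 or 4 or P0 replicate 2, with adjusted p-values from 0.0992 to 0.163, and with DESeq2 (0.0522). Gabrb1 (0.07), Gabra2 (-0.14), Gabra3 (-0.01) and Gabra4 (-0.33) had adjusted p-values of 0.516 or more.

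**Figure D4:**
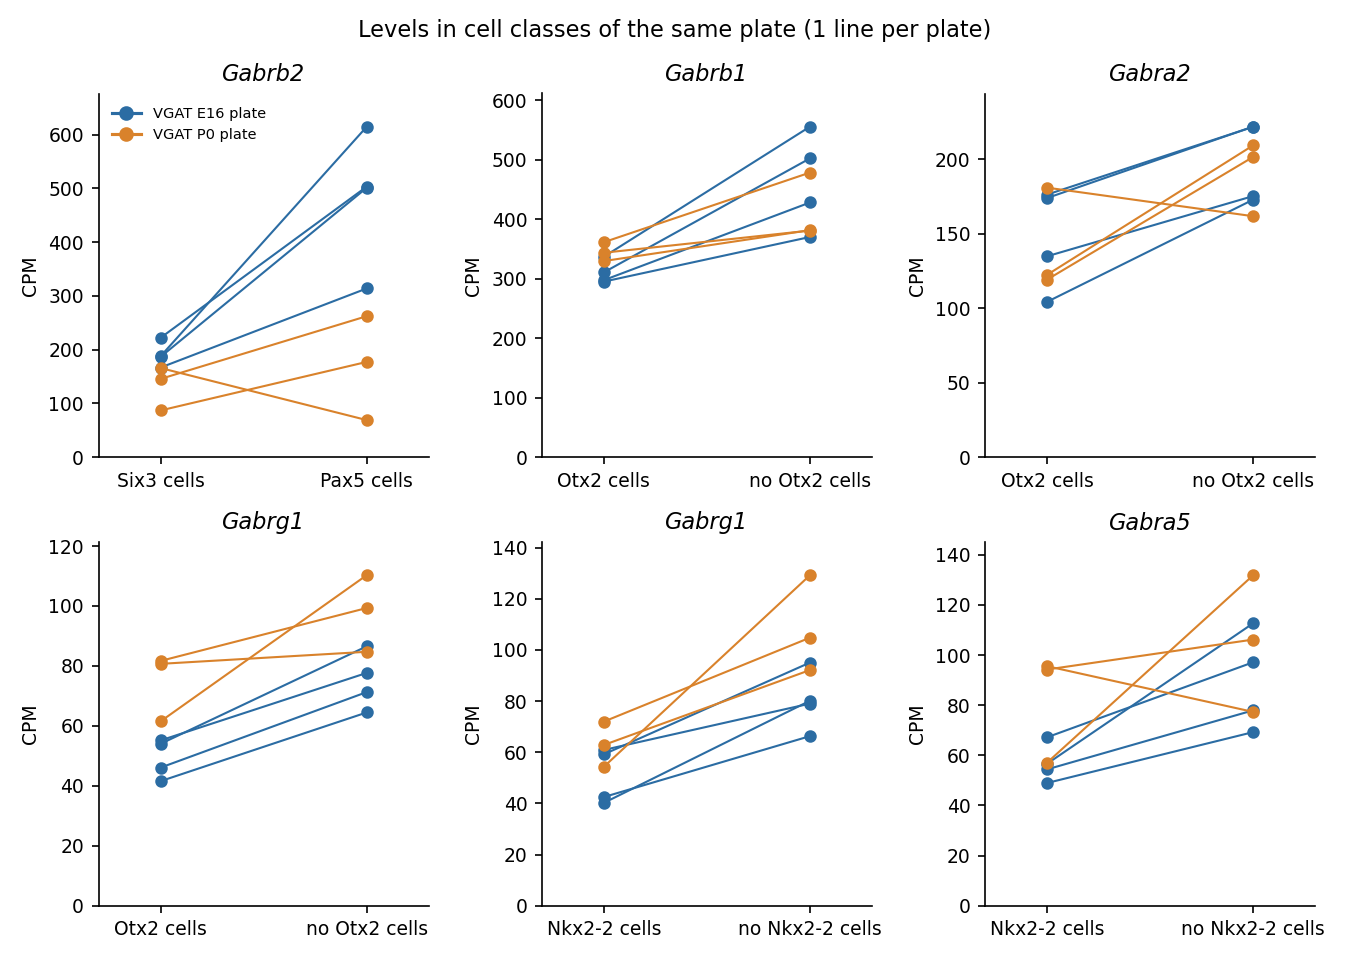
Level in CPM of called members in 2 groups of cells of the same VGAT plate, joined by 1 line per plate, for Six3 against Pax5, Otx2 against no Otx2 and Nkx2-2 against no Nkx2-2 cells. Gabrg1 rises from left to right on 7 of 7 plates for Otx2 and for Nkx2-2 cells, Gabrb1 on 7 of 7 plates for Otx2 cells, and Gabrb2 on 6 of 7 plates for Six3 against Pax5 cells.

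Cells with a Dlx1 count, a marker used for the hypothalamus, could be compared on 5 plates (185 and 1060 cells), since P0 replicates 1 and 3 had fewer than 5. Of the members 0 of 7 were called by edgeR and by DESeq2, with 3 at an unadjusted p under 0.05, and of 12980 genes 1.02%. Gabra4 was at 34.6, 36.8, 51.4 and 25.7 CPM in Dlx1 cells at E16 and at 71.3 CPM on P0 replicate 2, against 19.6, 22.7, 21.4, 31.6 and 22.2 CPM in the other cells. It exceeded the other cells on 4 of 5 plates, by 0.83 on the log2 scale in the fit (SE 0.22, edgeR adjusted p = 0.0818). With a plate left out the difference ranged from 0.70 to 1.02. Gabra4 passed only without E16 replicate 4 (edgeR adjusted p = 0.0208). That plate alone went the other way, so its removal had to raise the difference. Gabrb1 was higher on 5 of 5 plates by 0.34 (SE 0.09, adjusted p = 0.0952). When a Dlx1 cell needed at least 2 Dlx1 counts, P0 replicate 2 held 4 such cells and was left out as well. On the E16 plates alone, with 14, 62, 17 and 12 such cells, 350 of 12897 genes were called, against 133 of 12980 in the main fit. Among them were 3 members. These were Gabra4 at 1.09 (edgeR adjusted p = 0.0390), Gabrb1 at 0.54 (0.0109) and Gabrb2 at -0.79 (0.00551).

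No member passed the test between cells with a Lamp5 count, a marker used for the hindbrain, and the other VGAT cells (234 and 1226 cells). By edgeR and by DESeq2 0 of 7 were called, with 1 at an unadjusted p under 0.05, and 1.17% of 11340 genes were called. The log2 differences lay between -0.28 (Gabra4, SE 0.26) and 0.16 (Gabrb1, SE 0.13).

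At the level of single cells, most VGAT cells held counts of more than 1 member. To remove differences in depth, each cell was thinned to 4000 counts, which left out 79 cells. A VGAT cell then held 2.23 ± 0.205 members (SD, n = 7 plates), against 1.39 and 1.67 on the VGAT+Pitx3 plates at E16 and P0. An alpha together with a beta member was found in 46.7% to 59.3% of VGAT cells per plate and in 28.4% and 36.1% of VGAT+Pitx3 cells, and an alpha, a beta and Gabrg1 in 9.29% to 20.9% against 4.68% and 5.22%. Cells with no member count were 5.12% to 13.6% of VGAT cells and 21.7% and 14.1% of VGAT+Pitx3 cells. These shares depend on depth. Without thinning an alpha and a beta member were found together in 75.8% to 95.5% of VGAT cells and in 67.8% and 59.4% of VGAT+Pitx3 cells, and cells with no member fell to between 0% and 4.57% of VGAT cells.

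The share of thinned cells with a member followed the levels. Gabra2 was found in 32.5% to 43.6% of cells on the VGAT plates and in 20.7% and 18.9% on the VGAT+Pitx3 plates, with no overlap. Gabrb1 was found in 55.8% to 68.4% of VGAT cells and in 27.8% of VGAT+Pitx3 cells at E16, but in 56.2% at P0, which lay inside the VGAT range. Gabrb2 was found in 47.0%, 40.4%, 52.0% and 52.6% of cells on the E16 VGAT plates and in 32.6%, 39.7% and 20.7% on the P0 VGAT plates. As with the levels, the stages were apart for Gabrb2, and also for Gabrg1, which was found in 14.2% to 19.5% of cells at E16 and in 20.1% to 27.9% at P0. With 4 plates against 3 an exact test of a share cannot give a p below 0.0571, so the stages are described without one. How many of all genes separate by stage or by sort in their share of cells was not counted.

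**Figure D5:**
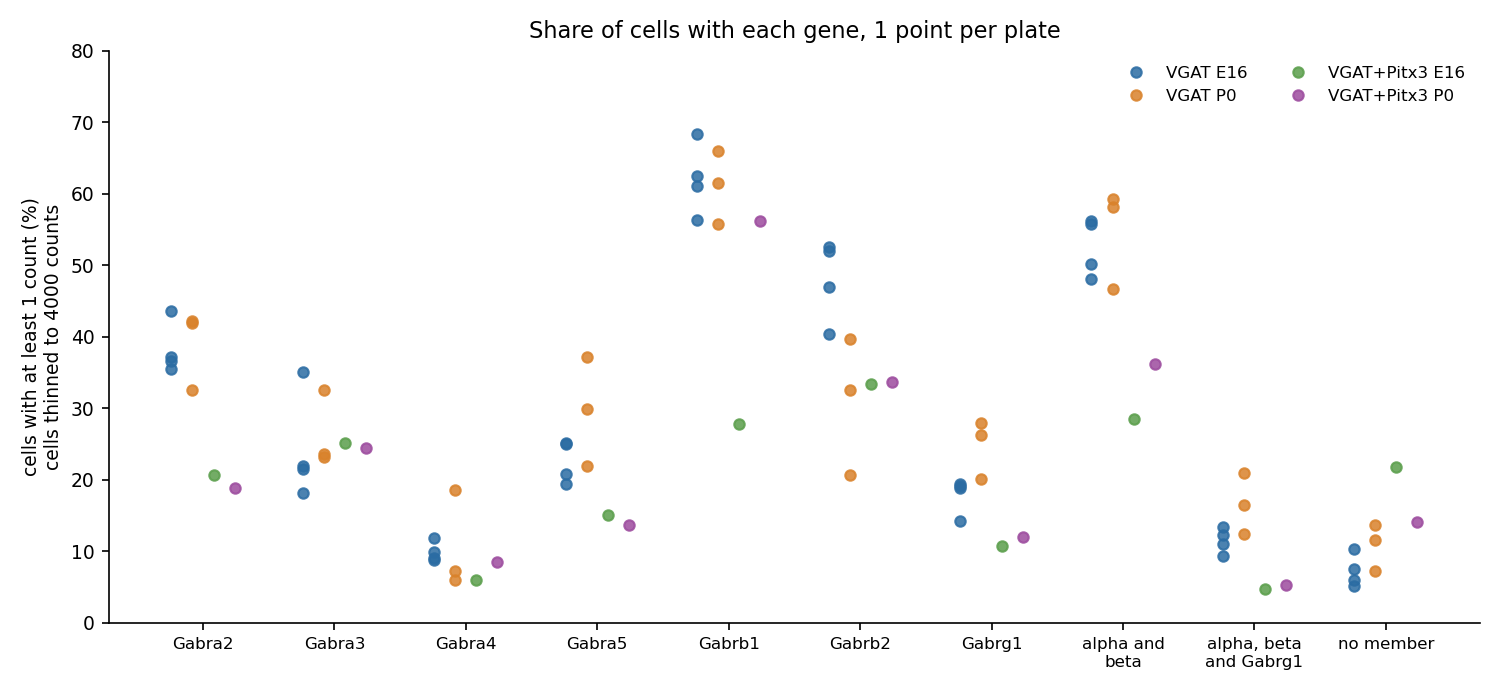
Percent of cells with a count of each member on the 9 plates after thinning each cell to 4000 counts, by sort and stage, with the shares of cells that hold several kinds of member or none at the right. Gabra2 lies between 32.5 and 43.6 on the VGAT plates and at 20.7 and 18.9 on the VGAT+Pitx3 plates, and Gabra3 overlaps between the sorts.

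Cells with a count of one member held another more often than cells without it for 4 of the 21 pairs, in an exact sign-flip permutation test over the 9 plates (two-sided, smallest possible p 0.0039, Benjamini-Hochberg over 21 pairs). Pairs of other genes were not tested, so whether 4 of 21 is more than for other genes of these cells is not known. Gabrb1 was found in 66.3% of cells with Gabra2 and in 52.5% of cells without it, a difference of 13.8 percentage points (SD 3.42 over plates, higher on 9 of 9 plates, exact permutation adjusted p = 0.041). It was found in 70.4% of cells with Gabra4 and in 55.5% without (14.8 points, SD 10.9, 9 of 9 plates, the same adjusted p). Gabra5 was found in 26.7% of cells with Gabra3 and in 21.97% without (4.68 points, SD 4.35, 8 of 9 plates, the same adjusted p). Gabrg1 was found in 24.9% of cells with Gabrb2 and in 15.1% without (9.85 points, SD 13.2, 8 of 9 plates), and on P0 replicate 1 this difference was 43.3 points, without which the mean was 5.66 points.

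When cells were thinned to 8000 counts, which left out 488 cells, 6 pairs passed, among them the pairs of Gabrb1 with Gabra2 and Gabra4. The other 2 did not, with 1.86 points for Gabra3 and Gabra5 (exact permutation adjusted p = 0.764) and 3.83 points for Gabrb2 and Gabrg1 (positive on 4 of 9 plates, adjusted p = 0.416). At that depth Gabra4 and Gabrb2 were found together less often, by -6.11 points on 9 of 9 plates (SD 5.08, adjusted p = 0.041).

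None of the 4 pairs passed on the 7 VGAT plates alone, where the test has fewer signs to flip, although each pair was positive there on 7 of 7 plates. With 1 plate left out, the 4 pairs passed when that was the VGAT+Pitx3 P0 plate and failed for each of the other 8. The first 2 pairs hold genes of the chromosome 5 cluster, of which Gabra4 and Gabrb1 share 196 bases. The other pairs of cluster genes did not pass, with exact permutation adjusted p-values from 0.0656 to 0.142. The part of gene position in these shares was not tested. Cells of several types on a plate, which differ in the members they express, also enter these shares, and their part was not tested. For Gabra2 and Gabrb2 the difference was -0.04 percentage points (SD 6.76, positive on 2 of 9 plates, exact permutation adjusted p = 0.988).

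Other genes of inhibitory synapses were read from the same fits. By stage, 0 of 5 tested other GABA-A subunit genes, 2 of 19 anchoring, auxiliary and trafficking genes, 1 of 5 GABA-B receptor genes and 0 of 4 glycine receptor genes were called. Gabbr2, a subunit of the GABA-B receptor, was higher at P0 (log2 0.53, edgeR adjusted p = 0.0227), as was Hap1, a trafficking protein of GABA-A receptors (0.94, 0.0357), while Plcl1, which binds beta subunits, was lower (-0.59, 0.0489). The medians of the 4 lists lay between -0.10 and 0.10, with 0.02 over all genes.

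In VGAT+Pitx3 against VGAT cells, 2 of 5 other subunit genes (1 in each direction), 2 of 19 anchoring genes (both higher), 3 of 5 GABA-B receptor genes and 2 of 4 glycine receptor genes (all lower) were called. Kctd8, Kctd12 and Kctd16, auxiliary subunits of the GABA-B receptor, were lower by log2 differences of -3.20, -1.28 and -1.25 (edgeR adjusted p = 6.5e-08, 2.8e-04 and 0.0304). Glra2 and Glra1, alpha subunits of the glycine receptor, were lower (-1.53 and -1.71, adjusted p = 8.2e-06 and 0.0223) and Plcl1 was higher (2.07, 7.8e-07). The median of the GABA-B list was -1.25 and that of the glycine list -1.24, beside 0.00 over all genes.

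In Six3 against Pax5 cells, 1 of 5 other subunit genes, 1 of 19 anchoring genes and 1 of 4 glycine receptor genes were lower and 1 of 5 GABA-B genes was higher. Glra1 differed by -2.69 on the log2 scale (edgeR adjusted p = 2.7e-04), Gphn, the scaffold gephyrin, by -0.52 (0.0123) and Kctd12 by 0.92 (0.00227). In Otx2 cells Kctd16 differed by 1.299 (adjusted p = 2e-05), Plcl1 by 0.29 (0.0336) and Kctd12 by -0.44 (0.0377), and 1 of 5 other subunit genes was lower. In Nkx2-2 cells Kctd12 differed by -0.67 (0.00590) and Gabbr2 by 0.38 (0.0231), with 1 of 6 other subunit genes lower. In Dlx1 cells Hap1 (0.53, 0.00243) and in Lamp5 cells Kctd12 (-1.002, 0.0290) were the only list genes called.

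By Pearson correlation of log2(CPM + 1) over the 9 plates, among 8164 genes with a mean of at least 20 CPM, the genes most like Gabra2 were Syndig1 (r = 0.990, n = 9) and Nxph1 (0.989). For Gabrb1 it was Dlgap2 (0.979), for Gabrg1 Gpc5 (0.985) and Cntnap5c (0.984), and for Gabrb2 Mir99ahg and Ppargc1a (both 0.961). For Gabra5 they were 4930452B06Rik (0.987) and N4bp2l1 (0.961), for Gabra4 Tbc1d8 (0.981) and Dmxl1 (0.918), and for Gabra3 Stip1 (0.919) and Zfp513 (0.912). The plates are shared by all genes and include both sorts, so a gene that differs between the sorts correlates with any other such gene. Among the members, Gabra2 was most like Gabrb1 (0.900) and Gabra5 most like Gabrg1 (0.895), while the highest value for Gabra3 was 0.260.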

How the data were processed

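Single cells sorted by FACS were processed with SORT-seq, a plate form of CEL-seq2, and mapped by the authors with STAR to the mouse genome (mm10, per the submitters' processing notes). The deposited tables hold, per gene and well, total counts and spliced (exonic) counts as estimated counts. Of the non-zero values 51.7% were not whole, and 100% lay within 0.001 of a whole number of molecular identifiers of 6 bases after correction for identifiers seen more than once. The labels give that length, and the study's methods a shorter one. Another deposited table holds unspliced (intronic) estimated counts, and the intronic share is unspliced over unspliced plus spliced counts. Wells were kept with at least 2000 genes and at most 50000 counts, spike-ins (92 entries) left out, and less than 15% mitochondrial counts (34 entries). Counts were summed per plate, or per plate and group of cells, and rounded. CPM values are of the summed counts that are neither spike-in nor mitochondrial. Levels per plate and per group of cells compared in a fit carry TMM factors. Marker sums, levels in the Sox6 and Otx2 groups of VGAT+Pitx3 plates, the Six3 cells of the added stage fit and the 3-count floors do not.

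edgeR 4.0.16 (R 4.3.3) was used for the sums. Low genes were removed by filterByExpr, libraries scaled by TMM, and p-values of the quasi-likelihood F test adjusted by Benjamini-Hochberg over all genes tested. A gene with an adjusted p under 0.05 is referred to as called. The stage fit held the 7 VGAT plates, the population and interaction fits all 9. Groups of cells within plates were fitted with the plate as a block where both groups had at least 5 cells. Co-detection was tested per plate after thinning by an exact sign-flip permutation test. DESeq2 1.42.0, RLE factors, other filters, exonic counts, thinning, other marker limits and each plate left out were tried, and 5 alternatives were added after seeing the data (the second plate label for stage in the stage and in the population fit, and the 3 fits in subsets of cells). The fits were tested on simulated data. Python 3.11.15, numpy 2.4.6, pandas 2.3.3, scipy 1.17.1 and matplotlib 3.10.9 were used.

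The members and lists were chosen with earlier results of these data known. All 7 members were read from every fit, some given there only within a range or a count. A gene of the 4 lists (12 other GABA-A subunit genes, 20 anchoring, auxiliary and trafficking genes of which 19 matched, 5 GABA-B receptor genes and 5 glycine receptor genes) is named where it was called, at most 6 per comparison by adjusted p, and for each member the 2 genes most like it are named. Single genes of the list of other GABA-A subunits, 1 of the genes most like a member and the marker list of the Pax5 cells are not reported here. Replicate plates of a group differed by more than sampling noise (chi-square per degree of freedom 3.25 to 9.91), and 0 wells shared a name. Intervals cover counting error only. Clusters were not rebuilt, and doublets were treated only as an alternative that leaves 1912 cells.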

Additional observations from a re-analysis of the deposited data

Results flagged for a closer look

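In 49 groups of 4 to 7 plates, 7 had 1 plate far from the others by Dixon's test, which chance gives in about 1 in 20 groups. On VGAT E16 replicate 1, Gabrg1 was found in 14.2% of thinned cells, against 18.9% to 19.5% on the other E16 VGAT plates. The other values are differences of log2(CPM + 1) between groups of cells on a plate. For Six3 against Pax5 cells, Gabra4 differed by 4.48 on E16 replicate 1, where 5 Pax5 cells held 0 Gabra4 counts, against -1.72 to 0.21 elsewhere, and Gabrb2 by 1.25 on P0 replicate 1, where 5 Pax5 cells held 13 Gabrb2 counts, against -1.71 to -0.85. For Otx2 cells, Gabrb2 differed by 0.66 on P0 replicate 1 against -0.97 to -0.36. For Dlx1 cells, Gabra3 differed by -0.44 on P0 replicate 2 against 0.10 to 0.31. For Lamp5 cells, Gabra3 differed by 0.40 on E16 replicate 3 against -0.50 to -0.17, and Gabrg1 by 1.67 on P0 replicate 1 against -0.81 to 0.12. P0 replicate 1, with 44 kept cells, accounts for 3 of the 7.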

How the results depend on the processing

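The counts here are of members called out of 7 unless said otherwise, and log2 values are fitted differences. The cause of a change was not tested. By stage (1 member in the main fit), 0 were called for exonic counts, with the replicate block, with the second plate label and in Six3 cells, 2 without possible doublets, and 0 to 1 with a plate left out (0 without VGAT E16 replicate 3 or 4 or P0 replicate 1 or 3). By population (4), 1 was called in cells with no Th, Slc6a3 or Pitx3 count. For the interaction (0), DESeq2 called 1 and no filter on low counts 2 (66 genes of all). For Six3 against Pax5 cells (1), 2 were called with DESeq2, with no filter and with at least 2 counts of the marker, 0 without the plate as a block, and 1 to 2 with a plate left out. Without the plate as a block, 1 was called for Otx2 cells (4) and 1 for Nkx2-2 cells (3), for which DESeq2 also called 1 and leaving out a plate 1 to 3. For Dlx1 cells (0), no filter called 1, at least 2 counts 3, and leaving out a plate 0 to 1. The limit of 2 counts left out P0 replicate 2 for Dlx1 cells. For Six3 against Pax5 cells it left out VGAT E16 replicate 1 and P0 replicates 1 and 3. Of the 21 pairs (4 in the main test), 6 passed at 8000 counts per cell (2 of the 4 among them), 17 without thinning, 0 with at least 2 counts, 0 for exonic counts, 0 on the VGAT plates alone, and 0 to 7 with a plate left out.

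Same-numbered E16 and P0 plates did not deviate together (correlations -0.000621, 0.106 and -0.0235 over 8164 genes), so the numbers are not taken as pairs. The replicate block called 226 genes of all by stage (624 without it) and 914 by population (1306), with 0 and 3 members. The number of genes called moved by over 1.5 times by stage with the second label (1), in Six3 cells (230), thinned (383), without low-count filter (1588), with DESeq2 (944) and with a plate left out (76 to 833, at 265, 92 and 130 without VGAT E16 replicate 1, 3 and 4, and 162 and 76 without P0 replicate 2 and 3), and by population in cells without dopamine markers (658) and without the E16 (625) or P0 (866) VGAT+Pitx3 plate. For Six3 against Pax5 cells (332) it was 148 without block, 541 without filter, 661 with at least 2 counts and 165 and 207 without VGAT E16 replicate 3 and 4. It was 145 for Otx2 (576) and 62 for Nkx2-2 cells (433) without block, 929 and 772 without filter, 373 for Otx2 cells without VGAT E16 replicate 4, and 264 and 274 for Nkx2-2 cells without replicate 3 and 4. For Dlx1 cells (133) it was 23 without block, 329 without filter, 350 with at least 2 counts and 80 with DESeq2, and for Lamp5 cells (133) 39, 534 and 220 with the first 3 of these, and 82 and 77 without VGAT E16 replicate 3 and 4.

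Of the single members, 46 values of an alternative had the opposite sign, and of these Gabrb2 by stage with the second label (0.83) was the only one whose main value was called. With that label Gabra2 was 0.32, Gabra3 -0.51, Gabra4 0.22, Gabrb1 0.19 and Gabrg1 -0.0735 by stage. For exonic counts by stage Gabra2 was 0.049, Gabra4 0.016 and Gabrb1 0.15, in Six3 cells 0.0085, 0.069 and 0.18, and Gabra2 was 0.080 thinned, 0.0027 with the replicate block and -0.13 to 0.022 with a plate left out. By population Gabra3 was 0.0044 with at least 3000 genes, 0.014 without possible doublets, 0.028 thinned, 0.020 with the second label, 0.033 in cells with a GABA marker and -0.29 to 0.18 with a plate left out, Gabra4 -0.55 to 0.11 and Gabrb2 -1.20 to 0.0022. For the interaction Gabra2 was -0.49 thinned and Gabrg1 -0.23 without possible doublets and -0.033 thinned. For Six3 against Pax5 cells Gabra2 was -0.079 with at least 2 counts and -0.0037 to 0.26 with a plate left out, Gabra5 -0.26 to 0.038 and Gabrg1 -0.38 to 0.080. Gabra3 in Nkx2-2 cells was 0.0020 without block, 0.089 for exonic counts and -0.069 to 0.063 with a plate left out, and Gabrg1 in Dlx1 cells -0.28 to 0.031. In Lamp5 cells Gabra2 was -0.017 with at least 2 counts and -0.032 to 0.33 with a plate left out, Gabrb2 0.16 for exonic counts and -0.25 to 0.0087, and Gabrg1 -0.018 without filter, -0.032 for exonic counts and -0.22 to 0.17.

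Leaving out a VGAT+Pitx3 plate gave no interaction, since the term cannot then be estimated. Gabra4 was the shallowest member, with 810 counts in all, and had 1 to 22 counts per plate in Lamp5 cells and 0 to 61 in Pax5 cells. Over a whole plate 3 counts correspond to between 0.555 and 2.09 CPM.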
